A study of Mus musculus with 6 samples.

Results

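Glucocorticoid action in the liver was followed here through 10 genes, namely *Serpina6*, *Nr3c1*, *Hsd11b1*, *Fkbp5*, *Tsc22d3*, *Sgk1*, *Tat*, *Ddit4*, *Dusp1* and *Zbtb16*. All probes whose symbol in the liver array table was one of these names were taken, which gave 13 probes of 9 genes among the 25697 probes and 18138 symbols of the table. *Zbtb16* had no probe under that symbol. *Serpina6* was chosen by its low hSRY-ON values in the comparison described below, and the other genes were chosen by their known roles when earlier results of the same comparison were at hand. The differences of the 10 genes between the groups are therefore given as a description, with their errors and without p-values. Those past the threshold used for other genes are only counted, with nothing read from the counts. Of the 13 probes, 10 probes of 7 genes passed the filter on dim probes (3 or more of the 6 arrays with a detection p under 0.01) and were fitted together with the other probes of the array, 10734 in all.

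Glucocorticoids are steroid hormones made in the adrenal cortex, and most of the hormone in mouse plasma is bound to corticosteroid-binding globulin, the product of *Serpina6*, which the liver secretes. Inside the hepatocyte the enzyme encoded by *Hsd11b1* regenerates active corticosterone from its inert 11-keto form. The hormone then releases the glucocorticoid receptor, encoded by *Nr3c1*, from its chaperones, and the receptor enters the nucleus and binds short DNA elements near genes such as *Fkbp5*, *Tsc22d3* and *Per1*.

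The livers came from male FVB/N pups aged 6 days (P6, with the strain written FVB in the labels), with 3 hSRY-ON and 3 hSRY-OFF samples and 1 Illumina array for each. Both groups carried Signalox-hSRY, a single-copy cassette inserted at *H11*, a site on mouse chromosome 11, in which the ubiquitous CAG promoter drives the red fluorescent reporter *DsRed2* until Cre removes it. In hSRY-ON pups, Cre passed on by the oocyte of a *Ddx4-Cre* mother had removed *DsRed2*, so that the same promoter drove FLAG-tagged human *SRY* and *EGFP* in all tissues from the early embryo on. The hSRY-ON pups used for the arrays were selected not to carry the *Ddx4-Cre* transgene themselves, and hSRY-OFF pups carried the cassette without recombination. Cre passed on by the mother therefore went with the hSRY-ON group only, as did the gain of *EGFP* and the loss of *DsRed2*, and their effects and that of *SRY* cannot be told apart. The study states that this Cre acts whether or not the pup inherits *Ddx4-Cre*. Pups with an unrecombined cassette would thus come from other mothers and litters. Mother and litter would then also go with the group and could not be told apart from *SRY*. The study describes the samples as biological triplicates, while litters, feeding state, time of collection and plasma corticosterone of these pups are not given in the sources used here. For hSRY-ON pups in general, the study reports minimal suckling, a lack of milk in the stomach and slower growth than littermate controls. Some had died by P6, and the thymus was at times absent. Their livers were discoloured, and hepatocytes held neutral lipid by Oil Red O staining, which the study takes as a sign of hepatic steatosis. The part of feeding, growth and liver fat in the values below was not tested. Values are log2 normalized intensities, and a difference is the hSRY-ON mean minus the hSRY-OFF mean on that scale.

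The arrays detected between 10318 and 10762 probes. All 8 hepatocyte markers had a detected probe, and the summed level of the list lay between 17.56 and 17.59 in hSRY-OFF and between 17.42 and 17.48 in hSRY-ON livers. Its 9 tested probes included 4 that fell and 0 that rose, against 17.3% and 15.8% of all tested probes. *Alb* fell by 1.11 ± 0.22 (SE, limma adjusted p = 0.00852), at a dim probe with a mean of 7.94 in hSRY-OFF livers. *Ttr* fell by 0.46 and the *Serpina1a* probes by 1.11 and 0.91, while *Ahsg*, *Apoa1*, *Apoa2* and *Trf* did not pass the threshold. The sum is carried by probes such as those of *Ahsg*, *Trf* and *Apoa1* with levels of about 15, near the highest value of the scale (15.50), and can show little change. Of the 7 tested probes of erythroid markers 2 rose, *Alas2* by 0.93, and 0 fell, and their summed level was 15.97 to 16.34 in hSRY-OFF and 16.30 to 16.51 in hSRY-ON livers. Of the 7 of endothelial markers 3 rose, *Lyve1* by 1.94, and 1 fell (sums 13.06 to 13.32 and 12.83 to 13.16). *Lyve1* was detected on 1 hSRY-OFF array, and its difference was 1.85 with the undetected arrays at their floor. Of the 8 tested probes of stellate cell markers 1 rose and 2 fell (sums 13.52 to 13.75 and 13.20 to 13.43). *Lrat*, detected on 0 hSRY-ON arrays, was at least 2.23-fold lower. Of the 8 adrenal cortex markers, 7 were detected on no array (*Cyp11b1*, *Cyp11b2*, *Cyp21a1*, *Hsd3b1*, *Mc2r*, *Nr5a1* and *Star*). The exception was *Akr1b7*, which was detected but did not pass the threshold. The 3 hSRY-ON arrays were less alike than the 3 hSRY-OFF arrays. Their correlations over tested probes ran from 0.965 to 0.982, against 0.987 to 0.992, and the lowest array weight, 0.345, belonged to hSRY-ON replicate 3. The summed level of neutrophil markers was 16.54 in that replicate, against 14.92 and 15.13 in the other hSRY-ON livers and 15.50 to 15.70 in the hSRY-OFF livers. Results that rest on this array are given with and without it.

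*Serpina6* (probe ILMN_2921383) was well expressed in control liver and was not above background in any hSRY-ON liver. Its values in hSRY-OFF livers were 10.38, 10.75 and 10.93, or 10.69 ± 0.28 (SD, n = 3). In hSRY-ON livers they were 4.79, 4.62 and 4.64, or 4.68 ± 0.09 (SD, n = 3). The groups lay far apart, and the 3 hSRY-ON values sat together at the floor of the array. The fitted difference was -6.01 ± 0.16 (SE). Because no hSRY-ON array detected the probe, the decrease is only bounded, and *Serpina6* was at least 31.5-fold lower, the hSRY-OFF mean being set against the lowest level at which probes of the hSRY-ON arrays were detected. That bound belongs to the background correction used and ran from 9.99-fold to 33.2-fold under other corrections and scalings, for which it was computed after the data had been seen. The drop was plain before any processing. The deposited bead intensities were 1596, 2082 and 1817 in hSRY-OFF livers, against 152, 136 and 131 in hSRY-ON livers. The detection p-values of the latter were 0.257, 0.573 and 0.462, so the probe could not be told from negative control beads. The fitted difference was -3.66 when no background was subtracted, which is the smallest over the 16 alternatives tried. RNA came from whole liver, and the part of hepatocyte number in the fall of *Serpina6* was not tested. The tested probes of the hepatocyte markers, several of them near the top of the scale, had differences of -1.11 to 0.01.

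*Serpina6* lies in a cluster of serpin genes on mouse chromosome 12. Of the 9 tested probes of its neighbours, 5 fell and 0 rose, against 17.3% and 15.8% of all tested probes. *Serpina10*, which encodes the protein Z-dependent protease inhibitor of coagulation, is the next protein-coding gene on one side. It fell by 0.92 ± 0.13 on the log2 scale (SE, limma adjusted p = 0.00239). A probe of *Ppp4r4*, a regulatory subunit of protein phosphatase 4 and the next gene beyond it, was above background in 3 hSRY-OFF and 0 hSRY-ON livers. It was at least 1.69-fold lower (limma adjusted p = 0.00175), while its other probe was not detected on any array. *Ifi27*, an interferon-inducible gene further along, had a probe at -0.68 ± 0.21 (limma adjusted p = 0.0418) and another at -0.64 ± 0.21 (limma adjusted p = 0.0549). The call of the first *Ifi27* probe was lost without any single array other than hSRY-ON replicate 3, with differences between -0.78 and -0.51. On the other side, the alpha-1-antitrypsin genes *Serpina1a*, *Serpina1b* and *Serpina1d* are near-identical copies, and their probes may share targets. The 2 *Serpina1a* probes were lower, by limma differences of -1.11 ± 0.27 (adjusted p = 0.0176) and -0.91 ± 0.21 (adjusted p = 0.0143). Both calls were lost without hSRY-OFF replicate 2 (-1.15 and -0.88), and the first also without hSRY-OFF replicate 3 (-1.0). The *Serpina1b* probes (-0.33 ± 0.11 and -0.18 ± 0.11) and the *Serpina1d* probe (-0.28 ± 0.13) did not pass the threshold. Of these, the first *Serpina1b* probe, the *Serpina1d* probe and the second *Ifi27* probe passed it under some alternatives. The *Serpina1b* and *Serpina1d* levels of 14.54 to 15.43 lay near the top of the scale. *Ifi27l2b* and *Serpina1f* were not detected, and *Ifi27l2a* and *Serpina16* had no probe of those symbols.

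**Figure D1:**
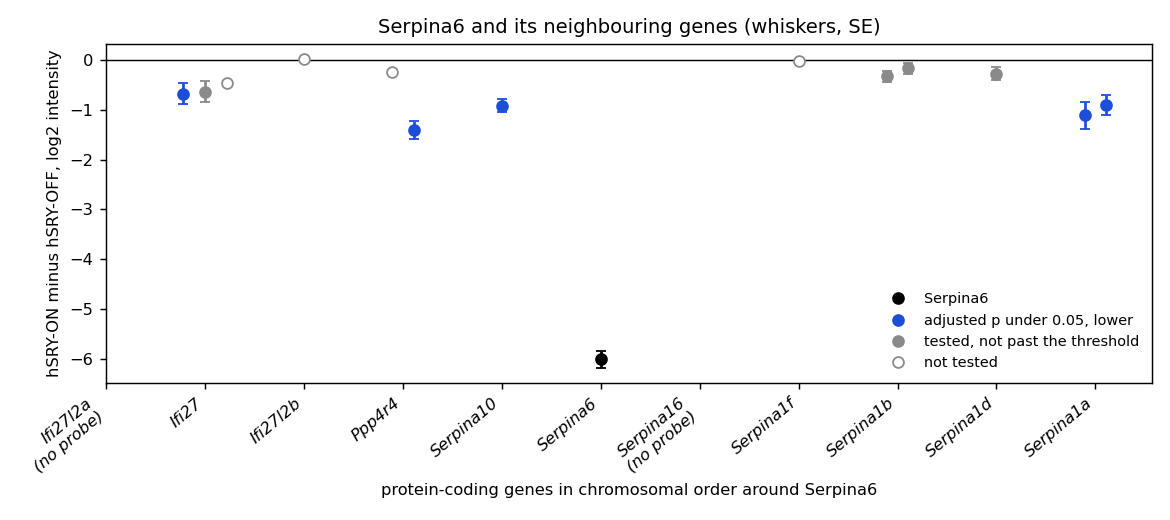
Difference between hSRY-ON and hSRY-OFF livers (log2 intensity, y axis) for each probe of *Serpina6* and the 5 protein-coding genes on each side of it in chromosomal order (x axis, evenly spaced). Whiskers are the SE of the fit and open points were not tested. *Serpina6* stands at -6.01 and the lower *Ppp4r4* point at -1.41, both against hSRY-ON values below detection, so that neither is an exact size, and the *Serpina1b* and *Serpina1d* points come from probes near the top of the scale.

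The tested genes whose values over the 6 arrays were nearest to those of *Serpina6* were *Cyp1a2*, *Inmt*, *Car3*, *D630003M21Rik* and *Ces1f* (listed as *AU018778*). Likeness was measured as the root mean square difference of log2 values, each probe centred on its own mean, and was 0.289 for *Cyp1a2*, 0.643 for *Inmt*, 0.677 for *Car3*, 0.715 for *D630003M21Rik* and 0.718 for *Ces1f*. This measure mostly follows the difference between the groups, by which *Serpina6* was chosen, so it mainly finds other probes with large falls. Their differences were -5.91, -4.92, -7.26, -4.66 and -4.67 in the same order. *Cyp1a2*, a hepatic drug-metabolising cytochrome P450, had values of 10.91, 11.34 and 11.57 in hSRY-OFF livers and 4.94, 5.38 and 5.77 in hSRY-ON livers, where it was detected on 1 array. *Car3*, *D630003M21Rik* and *Ces1f* were likewise above background in every hSRY-OFF liver and in 0 hSRY-ON livers, while *Inmt*, a methyltransferase of small amines, was still detected in all livers.

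The receptor gene could not be followed. The single *Nr3c1* probe (ILMN_2740568) was not above background on any of the 6 arrays, with values between 4.66 and 4.81. *Tat* encodes tyrosine aminotransferase, a classical glucocorticoid-induced liver enzyme, and its single probe (ILMN_1260050) was also not detected on any array (4.51 to 5.13). An undetected probe speaks for that probe alone. *Hsd11b1*, for instance, had a probe (ILMN_3041149) that stayed between 4.53 and 4.81 on all 6 arrays, while its other 3 probes were well above background in the same livers.

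*Hsd11b1* RNA, encoding the enzyme that reactivates corticosterone, was lower in every hSRY-ON liver by all 3 of its detected probes. Probe ILMN_1214998 read 14.23, 14.29 and 14.20 in hSRY-OFF livers and 13.31, 13.68 and 13.21 in hSRY-ON livers, a difference of -0.84 ± 0.15 (SE). Probe ILMN_2774160 read 14.11, 14.18 and 14.18 against 13.21, 13.66 and 13.08, a difference of -0.83 ± 0.17 (SE). Probe ILMN_3115917 read 14.45, 14.45 and 14.41 against 13.48, 13.78 and 13.46, a difference of -0.86 ± 0.13 (SE). The groups did not overlap at any of the 3 probes, as at 49.96% of all tested probes, and the control livers were the more uniform. The hSRY-OFF mean was 1.78 to 1.82 times the hSRY-ON mean, and none of the 16 alternatives moved a difference outside -0.98 to -0.71. The probes measure the same RNA and are not independent of each other. *H6pd* encodes the enzyme of the endoplasmic reticulum that supplies the NADPH for this reaction. Its values were 11.84, 11.90 and 11.85 in hSRY-OFF and 12.88, 12.90 and 11.89 in hSRY-ON livers, so that 2 hSRY-ON livers were higher and replicate 3 was within the control range (0.69 ± 0.27, limma adjusted p = 0.085). Without that replicate the *H6pd* difference was 1.04 and passed the threshold. *Hsd11b2*, which encodes the enzyme of the opposite reaction, was not detected on any array.

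**Figure D2:**
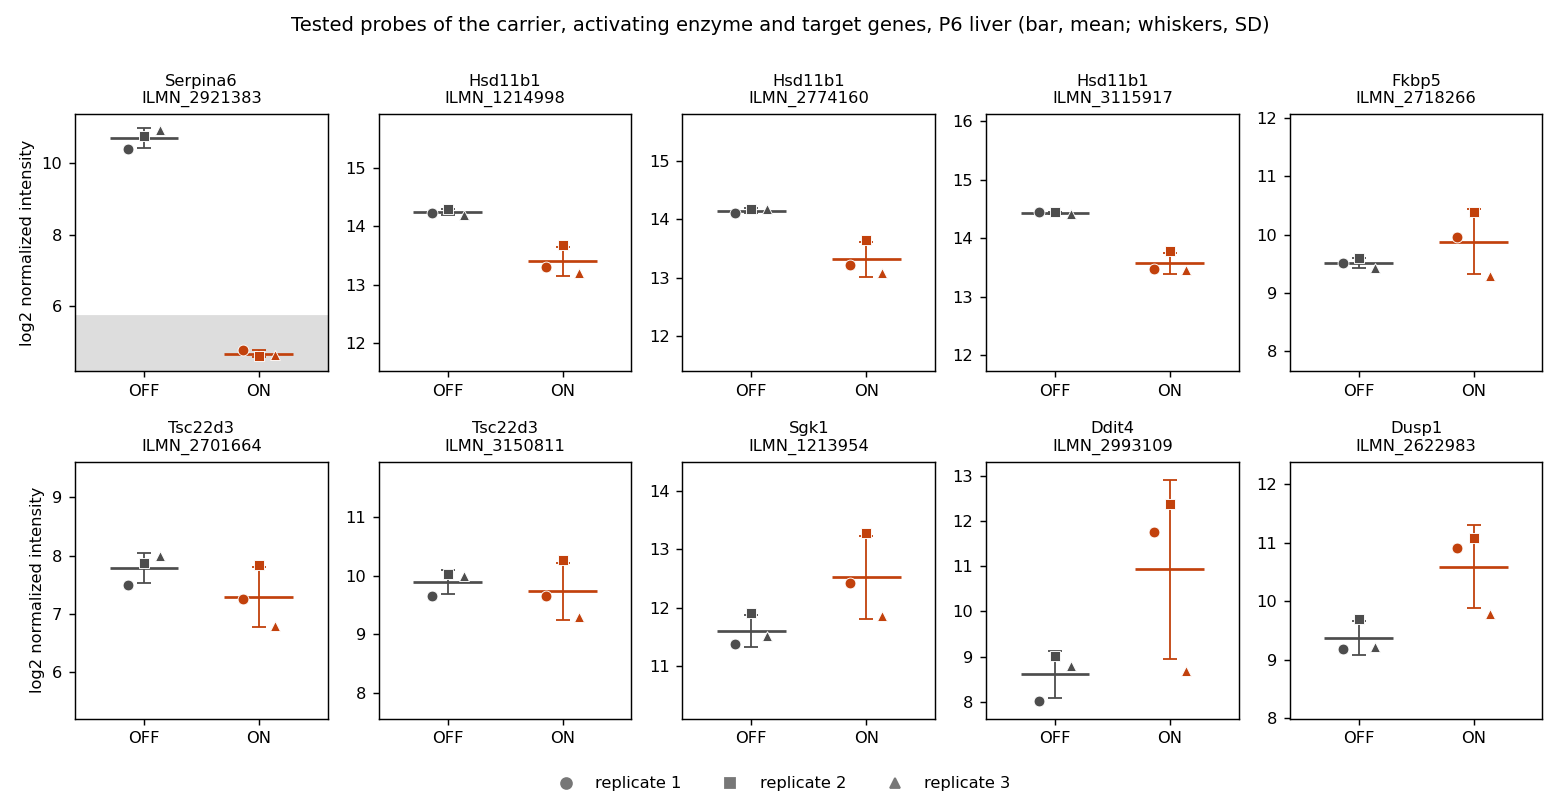
log2 normalized intensity (y axis) of each tested probe in the 3 hSRY-OFF and 3 hSRY-ON livers, 1 panel per probe with its own axis range. Bars are means, whiskers SD, and symbols mark the replicate number, which does not link samples across groups; the grey band for *Serpina6* lies below the mean detection floor. *Serpina6* and the *Hsd11b1* probes separate the groups downwards, *Dusp1* upwards, and hSRY-ON replicate 3 (triangle) is the lowest hSRY-ON liver in each target gene panel.

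Among the receptor's target genes, *Fkbp5* encodes an immunophilin that holds the receptor in a low-affinity state and is itself induced by it. It read 9.51, 9.60 and 9.42 in hSRY-OFF livers and 9.95, 10.39 and 9.29 in hSRY-ON livers. Replicates 1 and 2 of hSRY-ON exceeded every control, and replicate 3 lay below them all. The difference was 0.37 ± 0.26 (SE), with a 95% interval of -0.24 to 0.98, and it was 0.66 ± 0.16 without hSRY-ON replicate 3 and 0.11 ± 0.21 without hSRY-ON replicate 2.

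*Tsc22d3* encodes GILZ, a leucine zipper protein through which glucocorticoids dampen inflammatory signalling. Probe ILMN_2701664 read 7.49, 7.87 and 7.99 in hSRY-OFF livers and 7.25, 7.83 and 6.80 in hSRY-ON livers. Probe ILMN_3150811 read 9.66, 10.03 and 10.002 against 9.65, 10.26 and 9.30. The groups overlapped at both probes. The differences were -0.49 ± 0.27 (95% interval -1.11 to 0.14) and -0.16 ± 0.25 (95% interval -0.74 to 0.42). With all 6 arrays the intervals reach at most 1.34-fold of the control level, so a rise larger than that lies outside both. That limit depends on hSRY-ON replicate 3, the lowest hSRY-ON liver at both probes. Without hSRY-ON replicate 3 the differences were -0.24 ± 0.23 and 0.06 ± 0.22 (SE), and without hSRY-ON replicate 2 they were -0.75 and -0.43. The tested genes nearest to *Tsc22d3* over the 6 arrays by the same measure of likeness were *Ugt1a6a*, *Ivd*, *Ppa2*, *Ccdc90b* and *Acad8* for the first probe (0.0921 to 0.115) and *Prss8*, *Lgals8*, *Gys2*, *Nos3* and *Pank1* for the second (0.0664 to 0.0925).

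*Sgk1*, which encodes a kinase of ion and nutrient transport induced by glucocorticoids and mineralocorticoids, read 11.39, 11.91 and 11.51 in hSRY-OFF livers. In hSRY-ON livers it read 12.42, 13.28 and 11.86. Replicates 1 and 2 of hSRY-ON were above every control and replicate 3 was just below the highest control. The difference was 0.92 ± 0.34 (SE), and it was 1.25 ± 0.28 without hSRY-ON replicate 3 and 0.54 ± 0.23 without hSRY-ON replicate 2.

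*Ddit4* encodes REDD1, an inhibitor of mTORC1 that responds to glucocorticoids, energy stress and low oxygen, and it varied most among the hSRY-ON livers. Its values were 8.03, 9.01 and 8.79 in hSRY-OFF livers and 11.75, 12.36 and 8.67 in hSRY-ON livers. Replicates 1 and 2 of hSRY-ON stood well above all controls, and replicate 3 sat inside the control range. The mean difference of 2.32 ± 0.88 (SE), a 5.0-fold higher mean on the log2 scale, depended on which liver was included. It was 3.46 ± 0.32 without hSRY-ON replicate 3, 1.61 ± 0.83 without replicate 2 and 1.92 ± 1.01 without replicate 1.

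*Dusp1* encodes a phosphatase that switches off MAP kinases. It was the target gene whose groups did not overlap, a trait of 49.96% of all tested probes. It read 9.19, 9.70 and 9.23 in hSRY-OFF livers against 10.92, 11.08 and 9.78 in hSRY-ON livers. The difference was 1.22 ± 0.34 (SE), a 2.33-fold higher mean. It was 1.12, 1.38 and 1.14 when the hSRY-OFF arrays were left out in turn, 1.06 and 0.98 without hSRY-ON replicates 1 and 2, and 1.63 ± 0.19 without hSRY-ON replicate 3.

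**Figure D3:**
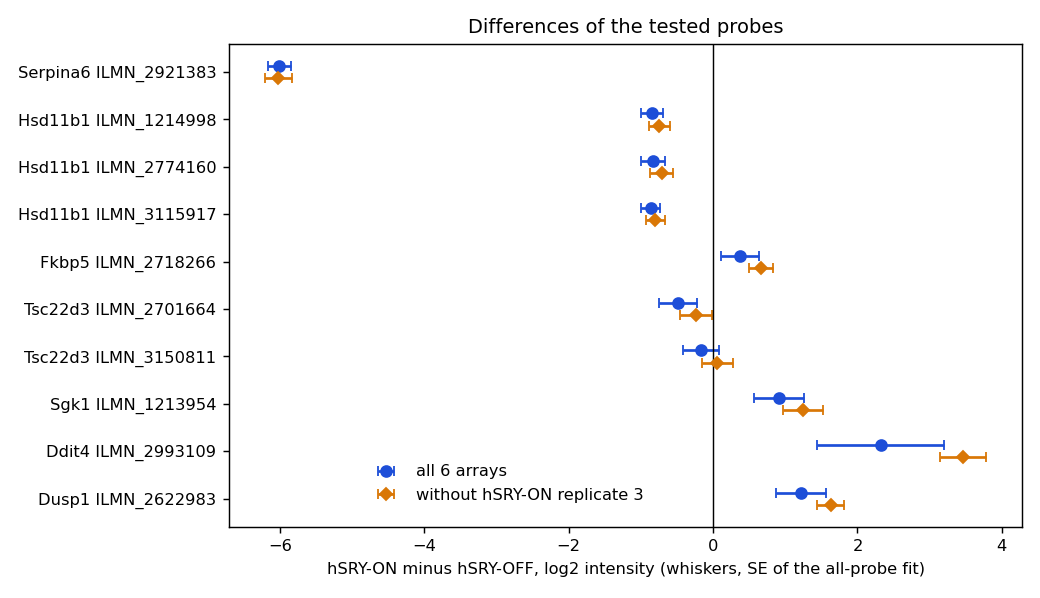
Difference between hSRY-ON and hSRY-OFF livers (log2 intensity, x axis) for the 10 tested probes (y axis), with all 6 arrays (blue circles) and without hSRY-ON replicate 3 (orange diamonds); whiskers are the SE of the fit over all probes. *Serpina6* and *Hsd11b1* hardly move when the array is left out, while *Ddit4* goes from 2.32 to 3.46 and the second *Tsc22d3* probe from -0.16 to 0.06.

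The 6 target probes shared an order within the hSRY-ON group. At all 6, from *Fkbp5*, *Tsc22d3*, *Sgk1*, *Ddit4* and *Dusp1*, replicate 2 was the highest and replicate 3 the lowest hSRY-ON liver. The same order was found at 2222 of the 10734 tested probes, or 20.7%. At 4 of the 6, replicate 3 lay nearer to the hSRY-OFF mean than did the mean of replicates 1 and 2. The same held for 62.6% of the probes past the threshold, a different set that holds only *Dusp1* of the 6. The *Tsc22d3* probes among the 6 belong to the same gene. Replicate 3 was also the liver with the highest neutrophil marker sum, whose part in these values was not tested.

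Over the 10 tested probes, 5 passed the threshold of an adjusted p of 0.05, with *Dusp1* higher and *Serpina6* and the 3 *Hsd11b1* probes lower. Of all 10734 tested probes, 33.1% passed it, 15.8% higher and 17.3% lower, and at 5363 (49.96%) the groups did not overlap. Because the genes were selected on this comparison, nothing is read from their count. The *Dusp1* call was lost without any 1 array other than hSRY-ON replicate 3 and when dim probes were kept in the test. Without hSRY-ON replicate 3 the probes past the threshold were 4 higher (*Dusp1*, *Fkbp5*, *Sgk1* and *Ddit4*) and 4 lower, and over the whole array they also increased, from 1700 to 1944 higher and from 1854 to 2116 lower.

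The promoters of the target genes were searched for the palindromic element to which the receptor binds as a dimer. RefSeq windows (GRCm38.p6) of 250 bases before an annotated start were used for 7 of the genes, 14 starts in all, with *Serpina6*, *Nr3c1* and *Zbtb16* not among them. The element searched was GNACANNNTGTNC, which reads the same on both strands. It occurred in 1 of the 14 windows, at an *Sgk1* start that is 1 of 6 listed for that gene, and in 0.387% of all 32851 windows of that length. The cAMP response element TGACGTCA, also the same on both strands, occurred in 1 of the 14 windows, that of *Dusp1*, and in 1.55% of all windows. Both windows are shown because they belong to the target genes with a match, 5' to 3' on the strand of the gene, with the matched letters in capitals.
Sgk1, chr10:21993640-21993889, plus strand: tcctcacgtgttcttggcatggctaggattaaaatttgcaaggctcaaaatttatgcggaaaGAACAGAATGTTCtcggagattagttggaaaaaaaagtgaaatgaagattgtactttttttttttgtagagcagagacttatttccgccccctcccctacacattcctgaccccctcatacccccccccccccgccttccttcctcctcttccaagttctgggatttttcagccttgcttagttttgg
Dusp1, chr17:26508473-26508722, minus strand: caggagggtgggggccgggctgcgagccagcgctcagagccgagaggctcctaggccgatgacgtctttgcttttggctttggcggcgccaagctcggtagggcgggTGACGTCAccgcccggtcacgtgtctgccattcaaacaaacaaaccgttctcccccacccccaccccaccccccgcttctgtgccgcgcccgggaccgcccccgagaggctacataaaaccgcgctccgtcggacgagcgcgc
The *Sgk1* match begins 188 bases and the *Dusp1* match 143 bases before the start. A match is a string of letters and was not tested for binding in these livers, and the windows without one say nothing of elements elsewhere in the gene.

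Other genes of the pathway were taken from 7 lists by role, drawn up with earlier results known, holding 132 genes of which 77 had a tested probe. Of their 90 tested probes, 31 rose and 10 fell, that is 34.4% and 11.1% against 15.8% and 17.3% of all tested probes. Their median difference was 0.40 against 0.02. The probes that rose belonged to 24 genes and those that fell to 10. Because earlier results were known when the lists were drawn up, nothing is read from these counts. The number of probes that rose was 20 without hSRY-OFF replicate 1 and 38 without hSRY-ON replicate 3, while that over all tested probes was 893 and 1944. Of the 41 probes past the threshold, 24 were so under each of the 16 alternatives.

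The steroid synthesis list had 6 tested probes, of which 4 rose and 0 fell (median difference 0.59). Over all tested probes, 15.8% rose and 17.3% fell. The 6 probes were 3 of *Tspo*, 1 of *Cyp17a1* and 2 of *Fdxr*. *Tspo* encodes a mitochondrial translocator protein and not an enzyme, and its probes set the median. The 2 probes of *Fdxr*, an electron donor enzyme, did not pass the threshold (-0.28 and -0.41). *Cyp17a1* encodes 17alpha-hydroxylase, which the rodent adrenal lacks. It read 5.14, 4.86 and 5.84 in hSRY-OFF livers, where 1 array detected it, and 12.47, 11.25 and 10.34 in hSRY-ON livers (6.07 ± 0.51, limma adjusted p = 0.000338). With the undetected arrays set at their floor the difference was 5.56. The *Tspo* probe with the largest difference read 10.86, 10.97 and 11.01 against 11.54, 11.50 and 11.60 (0.60 ± 0.11, limma adjusted p = 0.00697). The calls of the other *Tspo* probes were lost without hSRY-OFF replicate 1 (0.51 and 0.52), and the first of them also without hSRY-OFF replicate 2 (0.58) or hSRY-ON replicate 1 (0.54). *Cyp11b1* and *Cyp21a1*, whose enzymes carry out the last steps to corticosterone, were not detected on any array.

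The steroid metabolism list, which holds enzymes that inactivate steroids and also *H6pd*, had 6 tested probes, of which 2 rose and 2 fell (median 0.07). Of all tested probes, 15.8% rose and 17.3% fell. Cytochromes of the 3A family hydroxylate steroids, and their members went opposite ways. *Cyp3a11* fell by 1.60 ± 0.30 on the log2 scale (limma adjusted p = 0.0074). *Cyp3a13* rose, by 1.70 ± 0.51 at its probe of largest difference (limma adjusted p = 0.0393), but the *Cyp3a13* call was lost without any single array other than hSRY-ON replicate 3, with values down to 1.16. *Akr1c12*, an aldo-keto reductase of steroids, fell by 0.55 ± 0.16 (limma adjusted p = 0.0335), a call lost without hSRY-OFF replicate 1 or 2 or hSRY-ON replicate 1 or 3, with values between -0.62 and -0.43.

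Chaperones that hold the receptor ready for hormone had 12 tested probes, of which 3 rose and 1 fell (median 0.27). These were 25% and 8.33%, against 15.8% and 17.3% of all tested probes. *Fkbp4*, which encodes the immunophilin FKBP52 that ties the receptor to dynein for transport to the nucleus, was the 1 that fell. It read 12.16, 12.02 and 11.94 in hSRY-OFF livers and 11.06, 10.61 and 11.27 in hSRY-ON livers (-1.06 ± 0.18, limma adjusted p = 0.0052), and the call held under all 16 alternatives. *Bag1* (0.53 ± 0.12, limma adjusted p = 0.015) and 2 of 3 probes of *Hsp90ab1* (0.55 ± 0.15 for the larger, limma adjusted p = 0.0246) rose. The *Bag1* call was lost without hSRY-OFF replicate 2 (0.49). The *Hsp90ab1* call did not survive the loss of any single hSRY-OFF array or of hSRY-ON replicate 1, with values between 0.46 and 0.61.

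Coactivators and corepressors of the receptor had 12 tested probes, of which 3 rose and 2 fell (median 0.10). That is 25% and 16.7%, against 15.8% and 17.3% of all tested probes. *Ncor1*, a corepressor of nuclear receptors, read 6.37, 6.33 and 6.49 against 8.07, 8.16 and 7.78 (1.61 ± 0.14, limma adjusted p = 0.000356). *Prmt1*, an arginine methyltransferase, rose by 0.71 ± 0.16 (limma adjusted p = 0.0157), a call lost without hSRY-OFF replicate 2 (0.62). *Ppargc1a*, a coactivator of fasting liver, had a difference of 1.71 ± 0.53 (limma adjusted p = 0.0449), which stayed past the threshold without hSRY-ON replicate 3 but not without any other single array (1.1 to 2.0). The 2 that fell were *Ncoa3*, a coactivator of nuclear receptors that no hSRY-ON array detected (at least 1.21-fold lower, limma adjusted p = 0.00653), and *Hdac3* (-0.44 ± 0.12, limma adjusted p = 0.03). The *Hdac3* call was lost without any single array other than hSRY-ON replicate 3, with values between -0.48 and -0.36.

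Targets that many tissues share had 24 tested probes, of which 14 rose and 1 fell, 58.3% and 4.17% (median difference 1.12). Over all tested probes these shares were 15.8% and 17.3%. The erythroid, endothelial and stellate cell markers given above also moved, and their part in these values was not tested. The best known, *Per1*, a clock gene with glucocorticoid response elements, had 2 probes. They read 5.89, 6.73 and 6.52 against 8.56, 8.79 and 8.29 (2.17 ± 0.24, limma adjusted p = 0.000888) and 6.90, 7.35 and 7.34 against 9.17, 9.77 and 8.93 (2.10 ± 0.24, limma adjusted p = 0.00103). *Klf9*, a transcription factor induced directly by the receptor, read 7.65, 8.29 and 8.11 against 10.24, 10.79 and 9.35 (2.11 ± 0.36, limma adjusted p = 0.00472). For *Per1* and *Klf9* every hSRY-ON liver, replicate 3 included, lay above every control. Groups without overlap, in either direction, were found at 49.96% of all tested probes.

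The next 3 genes were named under a rule that required groups without overlap, and *Lpin1* had the largest difference of the list. *Lpin1*, a phosphatidate phosphatase, read 6.36, 7.11 and 7.61 against 10.29, 12.25 and 8.82 (3.43 ± 0.79, limma adjusted p = 0.015), a call lost without hSRY-OFF replicate 1 (3.09). Its other probes (ILMN_2592546 and ILMN_2738580) were not detected on any array. *Pdk4*, which blocks pyruvate oxidation, read 9.03, 9.55 and 8.77 against 11.69, 12.20 and 10.54 (2.36 ± 0.41, limma adjusted p = 0.00549). *Txnip*, a brake on glucose uptake, read 10.42, 10.79 and 10.55 against 13.15, 13.64 and 11.69 (2.24 ± 0.45, limma adjusted p = 0.0095). All 3 probes of *Cdkn1a*, the cell cycle inhibitor p21, rose, by 1.71 to 1.89. The 1 probe that fell was that of another cell cycle inhibitor, *Cdkn1c* (-1.72 ± 0.16, limma adjusted p = 0.000438). *Per2* was not past the threshold, at -0.58 and -0.52 for its 2 tested probes, and its other probe was too dim to be tested.

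Liver enzymes and secreted proteins that glucocorticoids induce had 22 tested probes, of which 5 rose and 2 fell, 22.7% and 9.09% (median 0.47). The shares over all tested probes were 15.8% and 17.3%. Without hSRY-ON replicate 3, 9 rose and 2 fell, while over all tested probes 1944 rose and 2116 fell. *Orm1*, an acute phase plasma protein, read 8.26, 8.16 and 8.50 against 12.60, 10.97 and 11.10 (3.25 ± 0.41, limma adjusted p = 0.00145). *Angptl4*, an inhibitor of lipoprotein lipase, read 11.00, 11.15 and 11.32 against 12.76, 13.13 and 12.88 (1.76 ± 0.15, limma adjusted p = 0.000335). *Igfbp1*, a plasma binder of insulin-like growth factors, was above background in 2 hSRY-OFF livers and all 3 hSRY-ON livers (2.59 ± 0.61, limma adjusted p = 0.0162, or 2.45 with the undetected array at its floor), a call lost without hSRY-OFF replicate 1 (2.22) or hSRY-ON replicate 1 (2.48). *Cebpb* (1.39) and *Arg1* (1.05) completed the 5.

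Among those that fell was *Agxt*, the peroxisomal alanine-glyoxylate aminotransferase, which read 12.35, 12.36 and 12.82 against 10.73, 11.27 and 11.31 (-1.40 ± 0.21, limma adjusted p = 0.00296). Enzymes of glucose production gave no call. *G6pc*, glucose-6-phosphatase, read 12.93, 13.49 and 13.16 against 13.24, 13.91 and 13.51 (0.36 ± 0.22, limma adjusted p = 0.229). *Pck1*, phosphoenolpyruvate carboxykinase, was above background in 2 hSRY-ON livers and in 0 controls and was too dim to be tested, and *Tdo2*, the tryptophan-degrading enzyme induced by the hormone, was not detected on any array.

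Inflammatory genes that glucocorticoids repress had 8 tested probes, of which 0 rose and 2 fell (median -0.52). The 2 that fell were 25% of the list, against 17.3% of all tested probes. *Cxcl10*, an interferon-induced chemokine, read 8.59, 8.64 and 8.49 against 6.14, 4.69 and 6.44, with 2 hSRY-ON arrays detecting it (-2.82 ± 0.41, limma adjusted p = 0.0028, or -2.47 with the undetected array at its floor). *Ccl5*, a chemokine of T cells and macrophages, had signal above background in 3 hSRY-OFF livers and 0 hSRY-ON livers, being at least 1.73-fold lower (limma adjusted p = 0.00391). The other 6 probes (*Cxcl1*, *Icam1*, *Il1a*, *Il1b*, *Mmp9* and *Vcam1*) lay between -1.04 and 0.23 without passing the threshold. Of the 11 tested probes of macrophage markers, 1 rose and 4 fell, against 15.8% and 17.3% of all tested probes. The summed level of that list was 13.70 to 14.01 in hSRY-OFF and 13.37 to 13.67 in hSRY-ON livers. The part of macrophage content in the chemokine values was not tested.

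**Figure D4:**
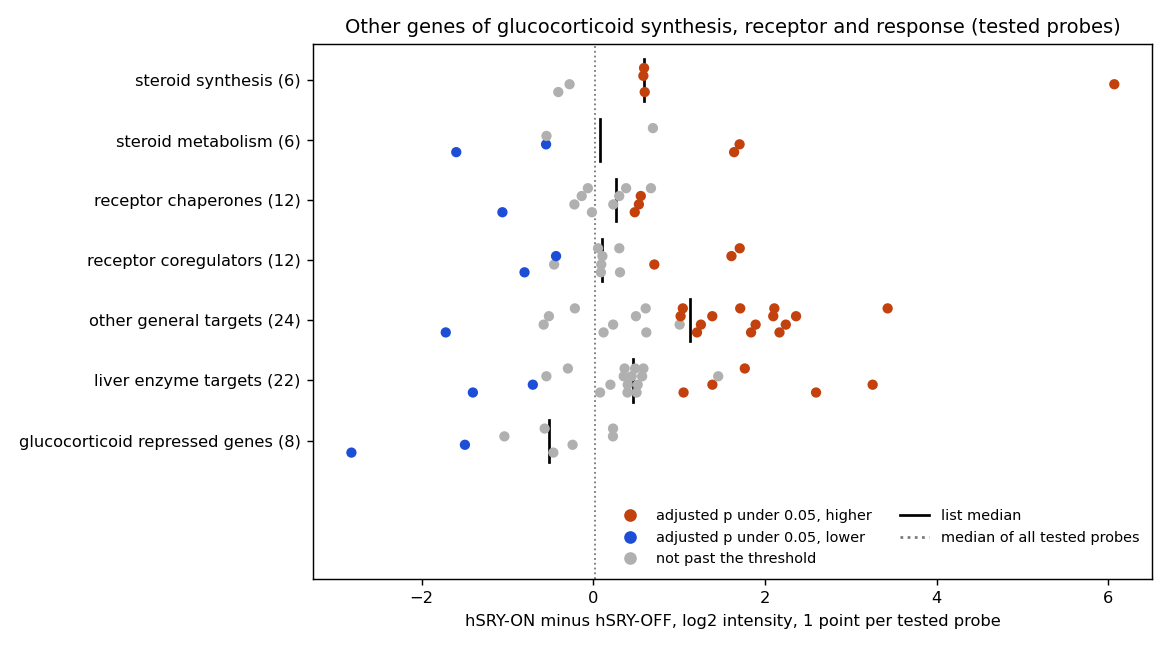
Difference between hSRY-ON and hSRY-OFF livers (log2 intensity, x axis) of each tested probe in the 7 lists (y axis, number of tested probes in parentheses), coloured by whether it passed the threshold; black bars are list medians and the dotted line is the median of all tested probes. Shared targets lie mostly to the right with a median of 1.12, and *Cyp17a1* is the point at 6.07. Repressed genes have a median of -0.52, with 2 of 8 tested probes past the threshold.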

How the data were processed

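The authors analysed total liver RNA on MouseRef-8 v2.0 BeadChips of Illumina. The deposited table gave a mean bead intensity per probe and array, neither background-subtracted nor normalized, and a deposited detection p-value relative to negative control beads. Scanner software and genome build are not given in the sources used here. The study names TCC, a package for counts, which was not applied to intensities, and the submitters' processing notes name limma. Groups were taken from the labels, and 0 columns lacked a sample. The number of arrays limits the precision.

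Background was removed with normexp from the detection p-values (function nec of limma 3.58.1 in R 4.3.3, offset 16), and the deposited intensities were then quantile normalized and put on a log2 scale, on which the offset shrinks differences of dim probes. The 10734 probes (8225 symbols) that 3 or more arrays detected at p under 0.01 were fitted with lmFit and eBayes without covariates, and two-sided p-values were adjusted by Benjamini-Hochberg over these probes with a threshold of 0.05. "Rose" and "fell" refer to it. Errors of differences are SE of this fit, and intervals are 95% and unadjusted. The procedure was also tested on simulated data with the same spread in both groups, capped below that of the most variable probes here. That test does not cover probes as variable as those of *Ddit4* and *Lpin1*. Where no array of the dimmer group detected a probe, the brighter mean was set against a floor, averaged over the dimmer arrays. The floor of an array was the dimmest normalized signal of any probe it detected, or the probe's own signal if brighter, and the result was given as "at least N-fold", a bound that holds for this background correction.

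The genes and lists were chosen with earlier results of these data known. Named were all probes of the 10 genes and, per list, up to 4 genes of largest difference past the threshold without overlap. *Per1*, *Cdkn1a*, *Klf9*, *H6pd*, *Hsd11b2*, *Nr3c2* (no probe), *Cyp11b1*, *Cyp21a1*, *Tdo2*, *Pck1* and *G6pc* were named whatever their values, as were 5 protein-coding genes on each side of *Serpina6* in the RefSeq table of GRCm38.p6 and, for *Serpina6* and each *Tsc22d3* probe, the 5 most similar genes. *Cdkn1c*, *Hdac3*, *Arg1*, *Cebpb*, *Per2* and the remaining repressed genes were named after their values were seen. Of 18138 symbols, 14307 were current in that table, 2927 matched through an older name and 904 kept the name of the file. Alternatives varied background, scaling, filter, variance model, replicate block and arrays.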

Additional observations from a re-analysis of the deposited data

How the results depend on the processing

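The fall of *Serpina6* kept its direction under all 16 alternatives, but its size followed the treatment of background. The difference was -3.66 with no background correction, -3.68 with trimmed mean of M values scaling of uncorrected intensities, -4.60 with an offset of 50 together with normexp without control information, -4.82 with an offset of 50 alone, and -6.13 to -5.91 with 1 array left out. Its bound, 31.5-fold as reported, was 9.99-fold with no background correction and 33.2-fold with median scaling, alternatives added after seeing the data. The higher calls among the 10 probes of the chosen genes, 1 as reported, were 0 without a filter, 0 at an adjusted p of 0.01, 3 with array weights, and 0 to 4 with 1 array left out. Lower calls stayed at 4 or 5. Over all probes, higher calls numbered 1557 without a filter and 2385 with array weights, and lower calls 1778 and 2414. With 1 array left out, higher calls in the wider lists ranged from 20 to 38, and those over all probes from 893 to 1944 higher and from 1141 to 2116 lower. The lowest of these came without hSRY-OFF replicate 1. At an adjusted p of 0.01 the wider lists held 17 higher probes, and the whole array 693 higher and 972 lower. The second *Tsc22d3* probe changed sign to 0.06 without hSRY-ON replicate 3 and ranged from -0.43 to 0.06 with 1 array left out. Among the other named genes, calls were also lost with median scaling (1 *Tspo* probe, *Bag1*, *Hsp90ab1*, *Hdac3*), with trimmed mean scaling (*Ncoa3*, *Hsp90ab1*, *Ppargc1a*), without a filter (*Akr1c12*, *Cyp3a13*, *Ppargc1a*, *Ifi27*), with the replicate block (*Hdac3*, *Ppargc1a*), and, for *Ppargc1a*, with no background correction or an intensity trend. Calls were gained by the first *Serpina1b* probe under 6 of the 16 alternatives, by the *Serpina1d* probe under 2 and by the second *Ifi27* probe under 7. The cause of these changes was not tested. The groups share replicate numbers, but samples of the same number did not deviate together clearly (correlations of deviations 0.0248, 0.0955 and 0.0523), so the numbers were not taken as pairs. With the replicate number as a block, 2 probes of the chosen genes were higher (*Dusp1*, and *Sgk1* at 0.92), and 32 of the wider lists were higher and 10 lower. Over all probes 1565 were then higher and 1645 lower. With 3 arrays per group, single outlying arrays were not tested for.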
